A study of Arabis alpina with 27 samples.

Results

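Stems of *Arabis alpina*, a perennial relative of *Arabidopsis thaliana*, were compared at the end of 21 weeks and at the end of 12 weeks at 4°C, to find which transcripts differ between a very long and a moderately long cold period. The comparison takes 6 of the 27 libraries of the series, 3 of 21w and 3 of 12w, and covers every gene of the count table. All plants were of the accession Pajares, a natural accession with no transgene, and grew for 8 weeks in long days (LD) before the move to 4°C, where the day length stayed that of LD. The 21w plants were then sampled after 21 weeks and the 12w plants after 12 weeks, both still in the cold and before any return to warmth. Each library held the pooled stems of 10 plants, cut from internodes 9 to 13 without the axillary buds, so a library is the average of 10 plants and gives no value for a single plant. The labels number the libraries as replicates without saying whether the pools were grown separately, and p-values therefore measure the spread between pools. The 21w plants had been in the cold for 9 weeks more and were 9 weeks older at harvest, and the duration of cold and the age of the stem cannot be told apart in this comparison. The hour of harvest was not given in the sources used here.

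Pajares plants flower only after a long cold period, and the study asked how a long cold period prepares the upper stem internodes for adventitious roots, which are roots that arise from stem tissue. Cold acclimation in plants begins with CBF transcription factors, which switch on cold-regulated (COR) genes whose products protect membranes and proteins, while starch, raffinose sugars and proline are adjusted as protectants. Stems thicken through the cambium, which forms phloem to the outside and xylem to the inside. Xylem cells then lay down a secondary wall of cellulose and xylan and seal it with lignin, a polymer made from phenylalanine. Plants of the cabbage family also defend their tissues with glucosinolates, sulphur compounds derived from amino acids, and respond to wounding with jasmonate, a hormone that acts by having JAZ repressor proteins destroyed. Gene symbols below are those of the *A. thaliana* homolog that the count table pairs with each *A. alpina* gene, and roles given for them are known from *A. thaliana*.

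Each library held 17.03 to 19.4 M counts at 21w and 16.7 to 20.1 M counts at 12w, within the range of 16.1 to 22.5 M over all 27 libraries. Values are given as CPM, counts scaled to a common library size with TMM factors so that libraries can be compared, and CPM does not correct for gene length, so levels are compared between groups and not between genes. Across genes, log2(CPM + 1) correlated at 0.904 to 0.908 among the 21w libraries and at 0.904 to 0.911 among the 12w libraries, while pairs of a 21w and a 12w library correlated at 0.867 to 0.898. The tissue label was checked against markers. Vascular genes were present in every library, with summed CPM of 7 phloem markers of 506 to 555 at 21w and 325 to 381 at 12w. Of 7 tested markers of differentiated roots, none was called by edgeR's quasi-likelihood test (at an unadjusted p under 0.05, 1 higher and 1 lower, and 0 higher and 0 lower by DESeq2), and the Casparian strip gene *CASP2* was at 0 in all 6 libraries. Together the 7 root markers were not absent, with a summed CPM of 23.4 to 36.2 at 21w and 35.9 to 42.4 at 12w. The floral organ gene *AG* averaged 0.211 CPM at 21w and 0.240 CPM at 12w. These are bulk stems, where fewer cells of a type and less RNA per cell cannot be told apart.

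Of 19337 genes tested with edgeR's quasi-likelihood test, 299 (1.55%) were higher at 21w and 263 (1.36%) were lower, together 2.91%. These calls required both a 2-fold change and a p below 0.05 after Benjamini-Hochberg adjustment. At an unadjusted p under 0.05, 2014 genes were higher and 2117 lower. Most called changes were moderate. Of the higher genes 213 changed by 2 to 4-fold and 86 by more, and of the lower genes 176 changed by 2 to 4-fold and 87 by more. The median log2 fold change over all tested genes was 0.0019, so the scaling left the bulk of genes level. The libraries of the groups did not overlap for 286 of the higher and 252 of the lower genes, where without regard to the test 14.6% of all genes had every 21w library above every 12w library and 14.2% had every one below. Of the higher genes 25 were at 0 in all 12w libraries, and of the lower genes 14 were at 0 in all 21w libraries. The size of the list rested on single libraries. With 12w replicate 1 left out, 134 genes were higher and 169 lower, and with 21w replicate 1 left out, 191 were higher and 147 lower. With 12w replicate 3 left out, 178 genes were higher and 193 lower, and 90 higher and 105 lower genes were called under each of the 6 left-out libraries. DESeq2 called 598 genes higher and 468 lower, with 297 and 253 of the genes above among them.

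**Figure D1:**
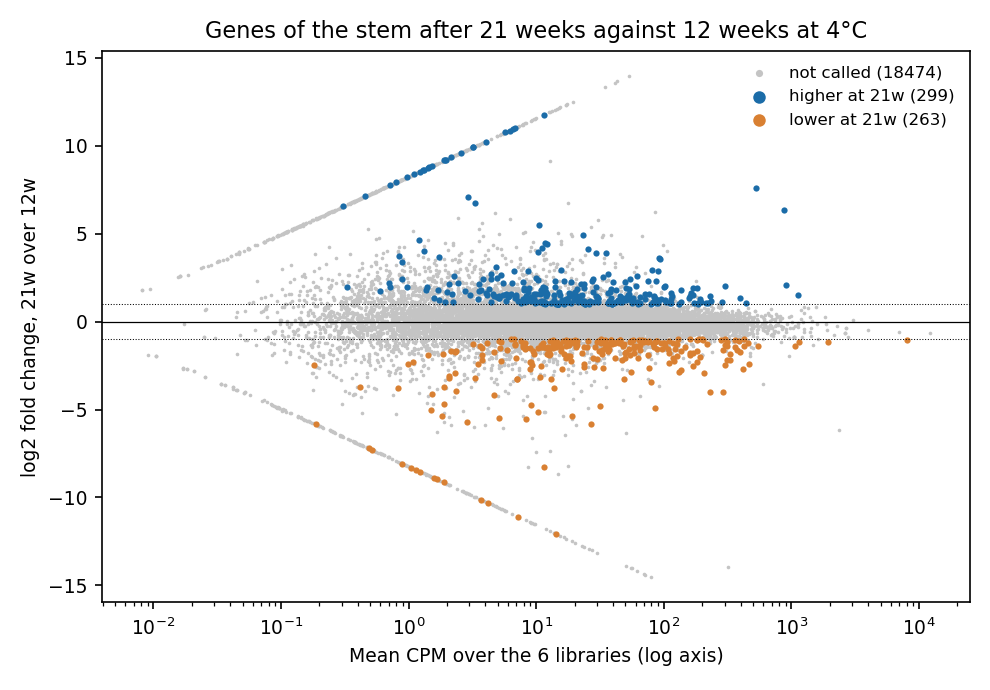
Log2 fold change of 21w over 12w (vertical axis) against mean level over the 6 libraries in CPM (horizontal log axis), 1 point per gene. Coloured points are the 299 genes called higher and the 263 called lower at an adjusted p under 0.05 and 2-fold, and the slanted lines of points are genes at 0 in all 3 libraries of one group, whose fitted fold depends on the prior count. Genes at 0 in all 6 libraries are not drawn, and the cloud of other genes is centred near 0.

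By function, genes of the secondary wall and lignin lay at the high end and aliphatic glucosinolate and cold-regulated genes at the low end. The list of 18 tested secondary wall polysaccharide genes had a median log2 fold change of 2.03, lignin genes 1.06, jasmonate signalling genes 1.03 and jasmonate synthesis genes 0.81, against 0.0019 over all genes. Secondary wall regulators, at 1.00, and phloem markers, at 0.86, lay among these, and sugar transport and invertase genes followed at 0.807. With genes at 0 in a group set to the fold that 3 counts allow, jasmonate signalling genes stood at 0.80, below the phloem markers. At the other end stood the aliphatic glucosinolate genes at -1.30 and the cold-regulated genes at -0.96. Most lists are described in turn, with members that passed the test and some that did not. Lists not described further gave no call with edgeR. They cover brassinosteroid, ethylene synthesis and perception, ethylene response factors, salicylate and pathogen defence, and senescence. They also cover phosphate starvation, TCP growth regulators, shoot meristem and boundary, and flavonoids and anthocyanins. Of 17 flavonoid and anthocyanin genes 14 had a positive and 2 a negative log2 fold change (median 0.69).

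**Figure D2:**
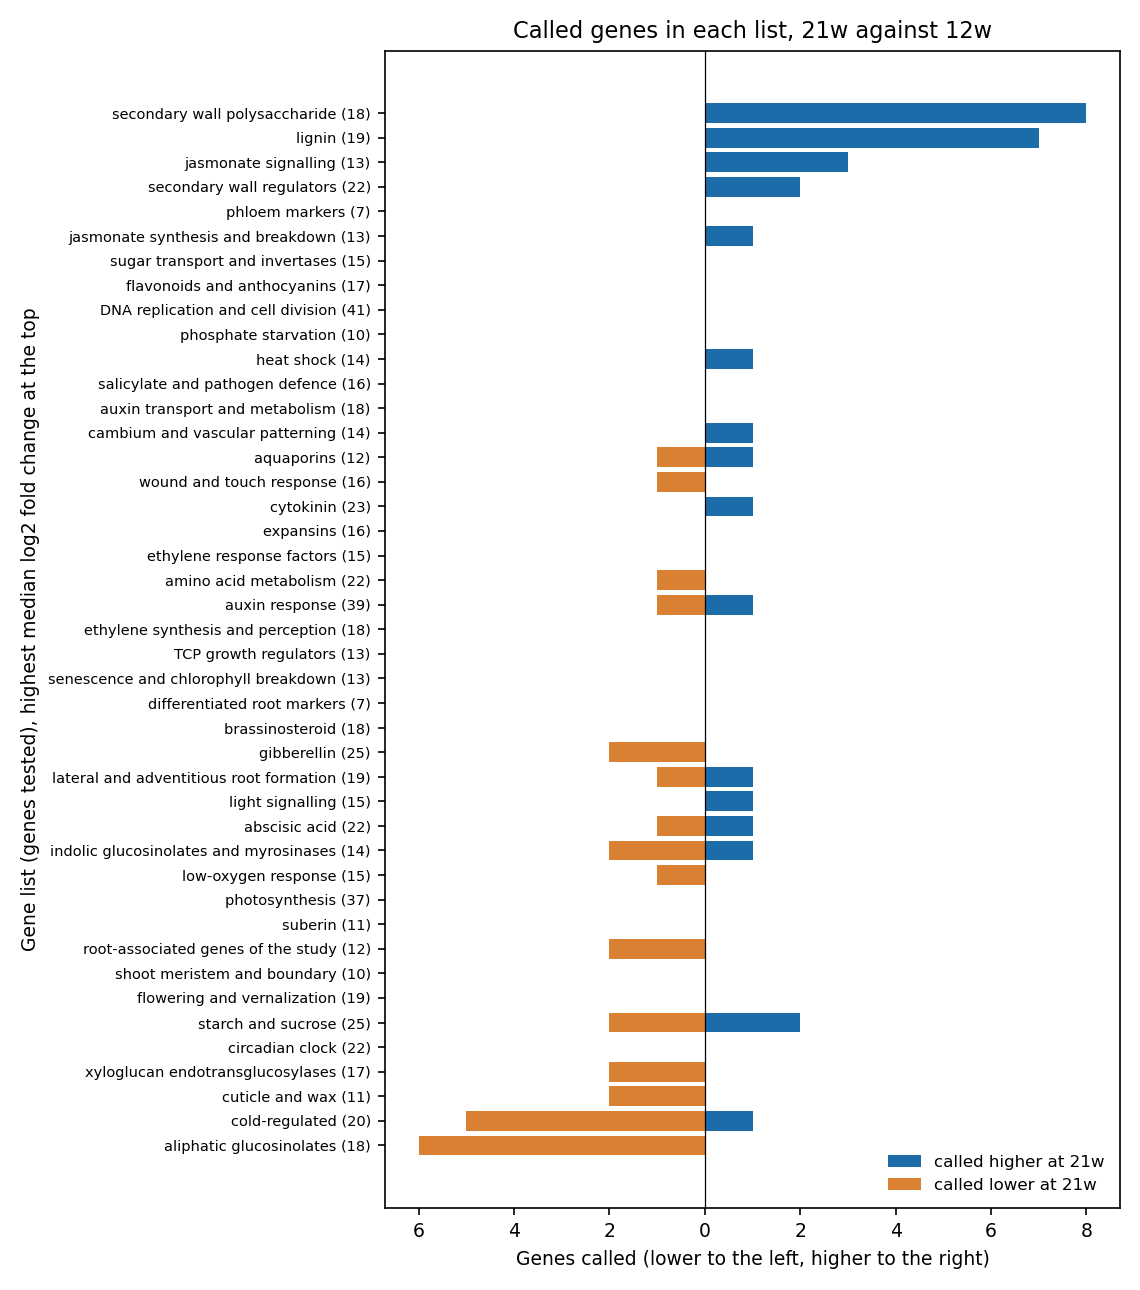
Number of genes called higher at 21w (bars to the right) and lower at 21w (bars to the left) in each gene list with at least 7 tested genes, the number tested in brackets, with lists in order of their median log2 fold change. Secondary wall polysaccharide genes, with 8 called higher and the highest median, are at the top, and aliphatic glucosinolate genes, with 6 called lower and the lowest median, are at the bottom.

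Part of the secondary wall polysaccharide list was higher at 21w. The list is wider than its name, as its calls include fasciclin-like proteins and the xylem peptidases described below. Of 18 tested genes 8 rose, against 1.55% of all genes, none fell and all 18 had a positive log2 fold change. For 15 every 21w library lay above every 12w library, against 14.6% of all genes. *IRX9* (Aa_G548140), which extends the xylan backbone, had 24.3, 46.9 and 22.0 CPM in the 21w libraries, against 3.39, 8.66 and 7.64 CPM in the 12w libraries. Every 21w library lay above every 12w library, and 21w replicate 2 stood highest. The change of *IRX9* was 2.24 ± 0.42 SE on the log2 scale (edgeR, adjusted p 0.00283). *IRX15L* (Aa_G165840), also needed for xylan, averaged 57.7 ± 13.9 CPM at 21w and 17.6 ± 4.91 CPM at 12w (SD, n = 3 each). *IRX15L* had an adjusted p of 0.00181 in edgeR and a log2 fold change of 1.71 ± 0.30 SE. *TBL29* (Aa_G287330), which acetylates xylan, rose as well, with a log2 fold change of 1.52 ± 0.39 SE and an adjusted p of 0.0198 with edgeR, and the call ended without replicate 2 of 21w or replicate 1 or 3 of 12w (adjusted p of up to 0.113). Fasciclin-like proteins of the secondary wall followed the same pattern. *FLA12* (Aa_G337330) had 48.3, 85.9 and 46.6 CPM in the 21w libraries, against 14.7, 17.5 and 17.4 CPM in the 12w libraries, with a log2 fold change of 1.87 ± 0.40 SE and an adjusted p of 0.00658 with edgeR. *FLA11* (Aa_G451910) averaged 45.9 ± 15.001 CPM at 21w and 9.29 ± 3.56 CPM at 12w (SD, n = 3 each). For *FLA11* edgeR put the log2 fold change at 2.30 ± 0.52 SE and the adjusted p at 0.00928, and the call ended without replicate 1 of 12w (adjusted p 0.0613). *CTL2* (Aa_G20460), a chitinase-like protein of cellulose assembly, averaged 161 ± 59.3 CPM at 21w and 41.8 ± 12.2 CPM at 12w (SD, n = 3 each), and its log2 fold change was 1.94, but the call ended without replicate 1 of 12w (adjusted p 0.0518). For all of these genes 12w replicate 1 was the lowest library of the 6.

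The cysteine peptidases *XCP1* (Aa_G548450) and *XCP2* (Aa_G334120), which clear the contents of dying xylem vessels, passed the test with less margin. *XCP1* had 111, 134 and 127 CPM in the 21w libraries, against 9.09, 45.6 and 21.6 CPM in the 12w libraries. The 12w libraries were spread widely, while the 21w libraries stood close together. The change of *XCP1* was 2.29 ± 0.62 SE on the log2 scale (edgeR, adjusted p 0.0292), and the call was lost when any library but 12w replicate 2 was left out (adjusted p of up to 0.136), with a log2 fold change of 3.03 without 12w replicate 2. For *XCP2* the log2 fold change was 2.26 ± 0.67 SE and an adjusted p of 0.0436 with edgeR, and the call was lost when any library but 12w replicate 2 was left out (adjusted p of up to 0.177), with a log2 fold change of 2.99 without 12w replicate 2. The cellulose synthases of the secondary wall, *CESA4*, *CESA7* and *CESA8*, did not pass. *CESA8* (Aa_G150190) had 74.7, 158 and 74.9 CPM in the 21w libraries, against 0, 23.4 and 20.0 CPM in the 12w libraries, a log2 fold change of 2.83 ± 0.92 SE and an adjusted p of 0.0668 with edgeR. The 21w libraries were all above the 12w libraries, but the gene did not pass. *IRX8* (Aa_G439480), a gene of the xylan reducing end, averaged 32.7 CPM at 21w and 3.19 CPM at 12w with an adjusted p of 0.0608 in edgeR. With 1 library left out, between 5 and 9 of the 18 genes were called higher, the 5 when it was replicate 2 of 21w or replicate 1 or 3 of 12w. On all libraries 11 were called with DESeq2, and a fit on the 6 libraries of 21w and 12w alone called 1.

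Some lignin genes were also higher at 21w, the phenylalanine ammonia-lyases at the entry of the pathway among them. Of 19 tested genes 7 rose, against 1.55% of all genes, and none fell. For 15 every 21w library lay above every 12w library, against 14.6% of all genes. *PAL2* (Aa_G14280), a phenylalanine ammonia-lyase that opens the pathway, had 379.8, 351 and 286 CPM in the 21w libraries, against 97.3, 137 and 133 CPM in the 12w libraries. The lowest 21w library was more than 2-fold above the highest 12w library. *PAL2* had an adjusted p of 6.06e-05 in edgeR and a log2 fold change of 1.47 ± 0.17 SE. The other phenylalanine ammonia-lyases moved alike. *PAL4* (Aa_G338680) averaged 237 ± 62.6 CPM at 21w and 86.2 ± 21.0 CPM at 12w (SD, n = 3 each), a log2 fold change of 1.46. *PAL1* (Aa_G570390) averaged 324 ± 47.3 CPM at 21w and 145 ± 48.5 CPM at 12w (SD, n = 3 each), a log2 fold change of 1.16, and the call ended without replicate 1 or 3 of 12w (adjusted p of up to 0.0621). The next enzymes rose by less. *C4H* (Aa_G552340), cinnamate 4-hydroxylase, had 596, 661 and 527 CPM in the 21w libraries, against 257, 325 and 269.7 CPM in the 12w libraries. For *C4H* edgeR put the log2 fold change at 1.07 ± 0.16 SE and the adjusted p at 0.000617, and the call ended without replicate 2 of 21w (log2 fold change of 0.99). *C3H1* (Aa_G144150), which hydroxylates the coumaroyl ring, had a log2 fold change of 1.06 ± 0.18 SE and an adjusted p of 0.00157 with edgeR, and the call ended without replicate 1 of 21w or replicate 1 of 12w (log2 fold change as small as 0.98).

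Later steps were mixed. *CCOAOMT1* (Aa_G274290), a methyltransferase of monolignol synthesis, averaged 356 ± 65.4 CPM at 21w and 179 ± 46.4 CPM at 12w (SD, n = 3 each). Its log2 fold change of 0.99 ± 0.23 SE and an adjusted p of 0.0115 with edgeR passed the adjusted p but not the 2-fold limit. *4CL2* and *CSE* likewise passed the adjusted p alone, at log2 fold changes of 0.70 and 0.44. *F5H1* (Aa_G179350), which directs the pathway to syringyl units, and *COMT1* (Aa_G578820) did not pass, at -0.33 and 0.17. *LAC4* (Aa_G150750), a laccase that polymerises lignin in the wall, had 70.7, 126 and 75.9 CPM in the 21w libraries, against 5.75, 27.0 and 17.8 CPM in the 12w libraries. The 12w libraries differed more among themselves than the 21w libraries did in proportion, with replicate 1 lowest. The change of *LAC4* was 2.43 ± 0.57 SE on the log2 scale (edgeR, adjusted p 0.0130), and the call ended without replicate 1 or 3 of 12w (adjusted p of up to 0.0663). *PRX64* (Aa_G604600), a peroxidase, had 8.52, 42.3 and 7.41 CPM in the 21w libraries, against 1.42, 2.24 and 0 CPM in the 12w libraries. Its change was carried by 21w replicate 2, which stood far above the other 21w libraries. *PRX64* had an adjusted p of 0.0136 in edgeR and a log2 fold change of 3.96 ± 0.94 SE, and the call ended without replicate 2 of 21w or replicate 1 of 12w (adjusted p of up to 0.0802), with a log2 fold change of 2.69 without 21w replicate 2 and 4.73 without 12w replicate 2. Leaving out 12w replicate 1 reduced the lignin calls to 3 of 19.

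**Figure D3:**
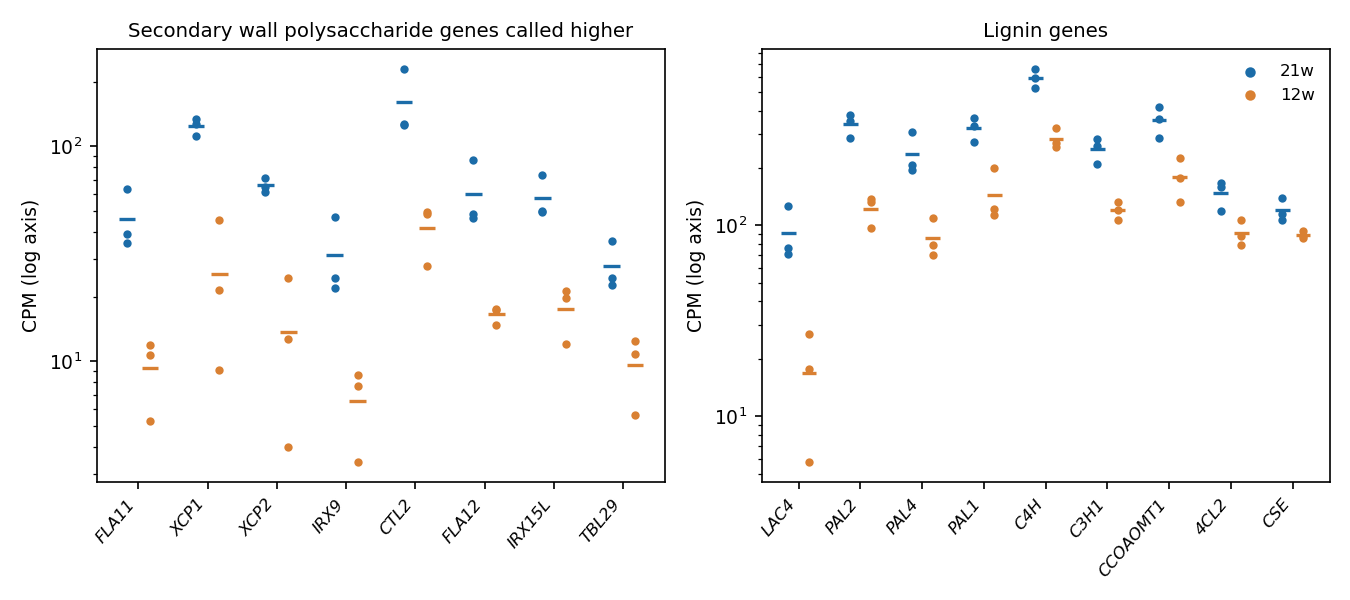
CPM (log axis) of secondary wall polysaccharide genes and lignin genes in each library of 21w (left of each pair) and 12w (right), with the group mean as a bar. The called wall genes have all 21w dots above all 12w dots, and *CCOAOMT1*, *4CL2* and *CSE*, shown beside them, did not reach 2-fold.

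Among the transcription factors of secondary walls 2 of 22 tested genes rose, against 1.55% of all genes, and none fell, with a median log2 fold change of 1.00. *SND2* (Aa_G55500), a NAC factor of fibre walls, had 17.4, 20.9 and 15.6 CPM in the 21w libraries, against 2.41, 6.27 and 5.20 CPM in the 12w libraries. No 12w library reached the 21w libraries, and the call held under each left-out library. For *SND2* edgeR put the log2 fold change at 1.96 ± 0.36 SE and the adjusted p at 0.00237. *MYB63* (Aa_G80410), an activator of lignin genes, had a log2 fold change of 1.05 ± 0.26 SE and an adjusted p of 0.0173 with edgeR, and the call ended without replicate 2 of 21w or replicate 1 or 3 of 12w (adjusted p of up to 0.103). The NAC switches of fibres and vessels were low and scattered. *NST1* averaged 6.46 CPM at 21w and 0.815 CPM at 12w (adjusted p 0.0787, edgeR), and *VND5* and *VND7* were at 0 in all 6 libraries. *MYB43* (Aa_G158120) passed the adjusted p with a log2 fold change of 0.96 ± 0.17 SE and an adjusted p of 0.00216 in edgeR, just under 2-fold.

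In the cambium and vascular patterning list 1 of 14 tested genes rose, against 1.55% of all genes. *ATHB8* (Aa_G740180), an HD-ZIP III factor of procambium and xylem, had 311, 283 and 305 CPM in the 21w libraries, against 129.9, 151 and 145 CPM in the 12w libraries. The libraries of each group lay close together and far from those of the other. The change of *ATHB8* was 1.08 ± 0.19 SE on the log2 scale (edgeR, adjusted p 0.00177), and it was called under every left-out library. The other HD-ZIP III genes moved less. *PHB*, *PHV* and *REV* had log2 fold changes of 0.37, 0.54 and 0.38, and *CNA* -0.18. *PXY* (Aa_G590900), the receptor kinase of the cambium, averaged 416 ± 54.2 CPM at 21w and 272 ± 39.8 CPM at 12w (SD, n = 3 each). At 0.61 ± 0.15 SE and an adjusted p of 0.0161 on the log2 scale with edgeR it passed the adjusted p but not 2-fold. *WOX4* (Aa_G171170), a target of that receptor, averaged 54.2 CPM at 21w and 51.0 CPM at 12w. Of 7 phloem markers none was called by edgeR (at an unadjusted p under 0.05, 3 higher and 0 lower, and 1 higher and 0 lower by DESeq2), with a median log2 fold change of 0.86. Every tested phloem marker had a positive log2 fold change, and the part of vascular tissue in the wall results was not tested.

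Several jasmonate genes were higher at 21w, led by genes for the repressors of the hormone's own signalling. Of 13 tested signalling genes 3 rose, against 1.55% of all genes, and none fell. Their median log2 fold change was 1.03 (0.80 with genes at 0 in a group set to the fold that 3 counts allow). *JAZ1* (Aa_G634720) had 57.6, 57.2 and 82.0 CPM in the 21w libraries, against 16.3, 19.2 and 20.2 CPM in the 12w libraries. The 12w values were tightly grouped and far below the lowest 21w library. *JAZ1* had an adjusted p of 0.00465 in edgeR and a log2 fold change of 1.82 ± 0.37 SE. *JAZ2* (Aa_G477000) had 96.2, 88.0 and 121 CPM in the 21w libraries, against 33.2, 48.9 and 42.1 CPM in the 12w libraries, with all 21w libraries again above. For *JAZ2* edgeR put the log2 fold change at 1.30 ± 0.19 SE and the adjusted p at 0.000528. Both calls held under every left-out library. *MYC2* (Aa_G16560), the transcription factor that JAZ proteins hold back, averaged 289 ± 54.5 CPM at 21w and 141 ± 35.1 CPM at 12w (SD, n = 3 each). The change of *MYC2* was 1.04 ± 0.31 SE on the log2 scale (edgeR, adjusted p 0.0480), and the call was lost whichever of the 6 libraries was left out (adjusted p of up to 0.212). *JAZ9* averaged 80.7 CPM at 21w and 35.7 CPM at 12w and missed the threshold (adjusted p 0.0528, edgeR). *JAZ12* passed the adjusted p at a log2 fold change of 0.65. *COI1* (Aa_G38320), the jasmonate receptor, ran the other way at -0.51 ± 0.12 SE and an adjusted p of 0.00986 on the log2 scale with edgeR, short of 2-fold.

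All 13 tested genes of jasmonate synthesis and breakdown had a positive log2 fold change, of which 1 was called, where 1.55% of all genes were called higher. *AOC3* (Aa_G409710), an allene oxide cyclase, had 47.5, 42.9 and 62.6 CPM in the 21w libraries, against 15.2, 30.4 and 23.2 CPM in the 12w libraries. *AOC3* had an adjusted p of 0.0272 in edgeR and a log2 fold change of 1.15 ± 0.31 SE, and the call ended without replicate 1 or 3 of 21w or replicate 1 or 3 of 12w (adjusted p of up to 0.143). *LOX2* (Aa_G49590), the lipoxygenase of leaf jasmonate synthesis, averaged 80.9 ± 14.5 CPM at 21w and 16.5 ± 19.6 CPM at 12w (SD, n = 3 each), and with an adjusted p of 0.159 in edgeR it did not pass. Genes that respond quickly to touch and wounding were listed separately. Of 16 tested, 11 had a positive log2 fold change with a median over the list of 0.31, none rose and 1 fell (at an unadjusted p under 0.05, 1 higher and 1 lower), and their summed CPM was 335 to 401 at 21w and 308 to 401 at 12w. The gene that fell was *ZAT6* (Aa_G181570), a zinc finger factor also known from cold and phosphate responses. It had 21.0, 25.5 and 31.9 CPM in the 21w libraries, against 69.7, 63.9 and 73.8 CPM in the 12w libraries, with no overlap. For *ZAT6* edgeR put the log2 fold change at -1.40 ± 0.40 SE and the adjusted p at 0.0361, and the call was lost whichever of the 6 libraries was left out (adjusted p of up to 0.147).

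Cold-regulated genes were mostly lower after the longer cold. Of 20 tested genes 5 fell, against 1.36% of all genes, and 1 rose. The summed CPM of the list was 4492 to 5950.0 at 21w and 9115 to 11541 at 12w, with no overlap. *CBF3* (Aa_G29810), a transcription factor that starts the cold response, had 2.54, 2.47 and 2.19 CPM in the 21w libraries, against 16.5, 20.2 and 9.59 CPM in the 12w libraries. All 21w libraries were below every 12w library and close to each other. The change of *CBF3* was -2.68 ± 0.78 SE on the log2 scale (edgeR, adjusted p 0.0412), and the call was lost whichever of the 6 libraries was left out (adjusted p of up to 0.124). *RD29A* (Aa_G396870), a classic target of CBF factors, had 945, 1156 and 1459.6 CPM in the 21w libraries, against 2871, 2708 and 2533 CPM in the 12w libraries. *RD29A* had an adjusted p of 0.0424 in edgeR and a log2 fold change of -1.19 ± 0.35 SE, and the call was lost whichever of the 6 libraries was left out (adjusted p of up to 0.175). *COR413PM1* (Aa_G81680), a cold-regulated plasma membrane protein, had 244, 249 and 215 CPM in the 21w libraries, against 651, 607 and 587 CPM in the 12w libraries. The groups lay far apart with little spread inside each. For *COR413PM1* edgeR put the log2 fold change at -1.38 ± 0.14 SE and the adjusted p at 8.63e-06, and the call held under each left-out library. *ADS2* (Aa_G167510), a fatty acid desaturase of cold membranes, averaged 124 ± 3.97 CPM at 21w and 251 ± 16.4 CPM at 12w (SD, n = 3 each). The change of *ADS2* was -1.01 ± 0.18 SE on the log2 scale (edgeR, adjusted p 0.00188), and the call ended without replicate 2 of 21w or replicate 1 or 2 of 12w (log2 fold change as small as -0.97). The call of *ADS2*, at the 2-fold limit, also ended under 7 of 10 alternatives, with DESeq2 giving -0.998. *GRP8* (Aa_G352050), a glycine-rich RNA-binding protein, had 174, 184 and 184 CPM in the 21w libraries, against 586, 519 and 579.6 CPM in the 12w libraries. *GRP8* had an adjusted p of 0.00595 in edgeR and a log2 fold change of -1.64 ± 0.34 SE. *ICE1* (Aa_G25540), an activator upstream of *CBF3*, had a log2 fold change of -0.71 ± 0.13 SE and an adjusted p of 0.00210 with edgeR, short of 2-fold. The dehydrin *ERD10* (Aa_G622600) averaged 1079.8 ± 61.5 CPM at 21w and 2123 ± 55.9 CPM at 12w (SD, n = 3 each), a log2 fold change of -0.98 that did not reach 2-fold.

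The member that rose was *RS5* (Aa_G495360), a raffinose synthase. It had 192, 157 and 135 CPM in the 21w libraries, against 58.4, 78.7 and 60.5 CPM in the 12w libraries, with no overlap. For *RS5* edgeR put the log2 fold change at 1.29 ± 0.29 SE and the adjusted p at 0.0102, and the call ended without replicate 1 of 21w or replicate 1 of 12w (adjusted p of up to 0.0571). The galactinol synthases that supply it did not pass and differed in sign. *GOLS2* (Aa_G7680) had 93.6, 79.6 and 86.8 CPM in the 21w libraries, against 3.89, 16.0 and 0 CPM in the 12w libraries, without overlap but with an adjusted p of 0.150 in edgeR. *GOLS3* (Aa_G394720) averaged 261 CPM at 21w and 708 CPM at 12w, with an adjusted p of 0.585 in edgeR. *KIN2* averaged 242 CPM at 21w and 197 CPM at 12w, with overlapping libraries. Several of the cold-regulated genes, *GRP8* among them, also follow the daily clock. Of 22 tested clock genes none was called by edgeR (at an unadjusted p under 0.05, 0 higher and 8 lower, and 0 higher and 0 lower by DESeq2), and the median log2 fold change was -0.38. Other settings called up to 4 clock genes lower, with 2 at the adjusted p alone and 1 in a fit on the 6 libraries of 21w and 12w alone. For 14 clock genes every 21w library lay below every 12w library, against 14.2% of all genes. Their summed CPM was 2707 to 2998 at 21w and 3899 to 4284 at 12w, and the part of the clock in the cold-regulated result was not tested. With 1 library left out, between 2 and 3 of the 20 cold-regulated genes were called lower, whichever library it was.

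**Figure D4:**
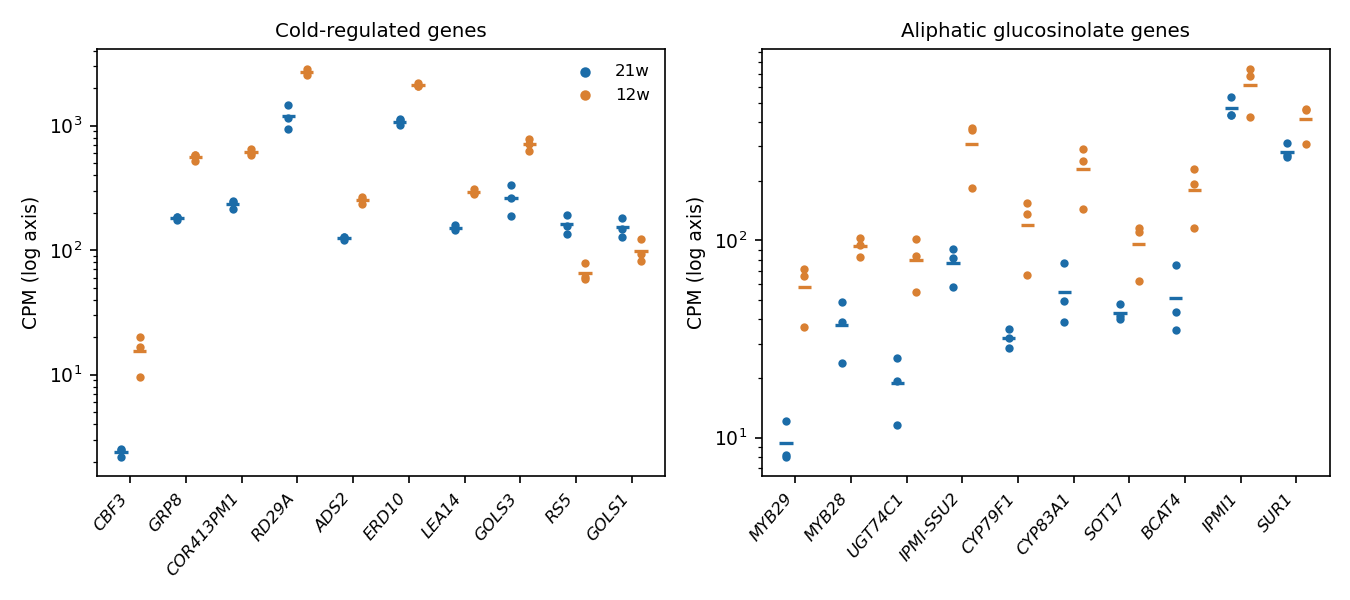
CPM (log axis) of cold-regulated genes and aliphatic glucosinolate genes, called or not, in each library of 21w (left of each pair) and 12w (right), with the group mean as a bar. *RS5* and *GOLS1* have all 21w dots above the 12w dots, and *CBF3*, *COR413PM1* and *MYB29* all 21w dots below.

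Among starch and sucrose genes, 2 genes of starch breakdown fell and 2 sucrose synthase genes rose. These were the only calls in the list of 25 tested genes, with a median log2 fold change of -0.34, where 1.55% of all genes were called higher and 1.36% lower. *GWD1* (Aa_G43230), the kinase that phosphorylates starch and opens it to breakdown, had 187, 192 and 198 CPM in the 21w libraries, against 447, 450.3 and 395 CPM in the 12w libraries. Variation within each group was small. The change of *GWD1* was -1.16 ± 0.09 SE on the log2 scale (edgeR, adjusted p 3.37e-07), and the call held under every left-out library. *BAM3* (Aa_G16660), the beta-amylase that makes maltose from starch, had 191, 175 and 175 CPM in the 21w libraries, against 473, 739 and 607 CPM in the 12w libraries. All 21w libraries were more than 2-fold below the lowest 12w library. *BAM3* had an adjusted p of 0.00107 in edgeR and a log2 fold change of -1.75 ± 0.29 SE. *SUS1* (Aa_G646640), a sucrose synthase, had 1657, 1643 and 1719.9 CPM in the 21w libraries, against 444, 613 and 678 CPM in the 12w libraries. The 21w values were nearly equal and more than 2-fold above the highest 12w value. For *SUS1* edgeR put the log2 fold change at 1.53 ± 0.21 SE and the adjusted p at 0.000278. *SUS4* (Aa_G252740), a close relative, had 101, 151 and 117 CPM in the 21w libraries, against 27.7, 86.1 and 37.5 CPM in the 12w libraries. Replicate 2 was the highest of the 12w libraries by far. The change of *SUS4* was 1.29 ± 0.37 SE on the log2 scale (edgeR, adjusted p 0.0379), and the call was lost when any library but 12w replicate 2 was left out (adjusted p of up to 0.180), with a log2 fold change of 1.92 without 12w replicate 2. Sugar transporters and invertases gave no call with edgeR among 15 tested (at an unadjusted p under 0.05, 4 higher and 0 lower, and 1 higher and 0 lower by DESeq2).

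A part of the aliphatic glucosinolate genes was lower at 21w. Of 18 tested genes 6 fell, against 1.36% of all genes, and none rose. All 18 had a negative log2 fold change, and 12 had every 21w library below every 12w library, against 14.2% of all genes. *MYB29* (Aa_G76360), an activator of the pathway, had 8.00, 12.1 and 8.19 CPM in the 21w libraries, against 36.6, 71.3 and 65.7 CPM in the 12w libraries. The highest 21w library was far below the lowest 12w library. *MYB29* had an adjusted p of 0.000806 in edgeR and a log2 fold change of -2.62 ± 0.41 SE, and the call held under every left-out library. *MYB28* (Aa_G606850), the other main activator, averaged 37.1 ± 12.6 CPM at 21w and 93.3 ± 10.5 CPM at 12w (SD, n = 3 each). For *MYB28* edgeR put the log2 fold change at -1.33 ± 0.33 SE and the adjusted p at 0.0179, and the call ended without replicate 1 or 3 of 21w or replicate 3 of 12w (adjusted p of up to 0.0807). Enzymes along the pathway followed. *IPMI-SSU2* (Aa_G401570), an isomerase subunit of methionine chain elongation, had 57.9, 90.7 and 81.2 CPM in the 21w libraries, against 184, 364 and 374 CPM in the 12w libraries. Replicate 1 was the lowest 12w library here and closest to 21w. The change of *IPMI-SSU2* was -2.003 ± 0.54 SE on the log2 scale (edgeR, adjusted p 0.0283), and the call was lost when any library but 12w replicate 1 was left out (adjusted p of up to 0.122). *CYP79F1* (Aa_G65470), which makes the aldoxime, had a log2 fold change of -1.90 ± 0.49 SE and an adjusted p of 0.0215 with edgeR, and the call ended without replicate 1, 2 or 3 of 21w or replicate 3 of 12w (adjusted p of up to 0.0917). *UGT74C1* (Aa_G154830), a glucosyltransferase, had 11.5, 25.5 and 19.5 CPM in the 21w libraries, against 55.0, 83.6 and 101 CPM in the 12w libraries, with no overlap. *UGT74C1* had an adjusted p of 0.0311 in edgeR and a log2 fold change of -2.09 ± 0.58 SE, and the call was lost whichever of the 6 libraries was left out (adjusted p of up to 0.140). *SOT17* (Aa_G119000), the sulphotransferase of the last core step, was at the edge of the threshold with -1.16 ± 0.35 SE and an adjusted p of 0.04998 on the log2 scale in edgeR, and the call was lost when any library but 12w replicate 1 was left out (adjusted p of up to 0.153). The call of *SOT17* also ended under 6 of 10 alternatives. With 21w replicate 1 or 3 or 12w replicate 3 left out, 1 of the 18 genes was called lower, with 21w replicate 2 left out 2 were, and with 12w replicate 2 left out 3 were, while on all libraries DESeq2 called 8 and a fit on the 6 libraries of 21w and 12w alone called 1.

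Genes of indolic glucosinolates, made from tryptophan, and of myrosinases, which break glucosinolates down, gave calls in both directions. Of 14 tested genes 1 rose and 2 fell, where 1.55% of all genes were called higher and 1.36% lower. In this list 9 had a negative log2 fold change, and the median was -0.17. Their summed CPM was 1751 to 2111 at 21w and 2433 to 3479.6 at 12w, lower at 21w without overlap. *CYP81F3* (Aa_G672590), which hydroxylates the indole ring, averaged 28.9 ± 8.31 CPM at 21w and 13.4 ± 4.75 CPM at 12w (SD, n = 3 each). For *CYP81F3* edgeR put the log2 fold change at 1.11 ± 0.30 SE and the adjusted p at 0.0254, and the call ended without replicate 1 or 3 of 21w or replicate 1 of 12w (adjusted p of up to 0.135). *GSTF9* (Aa_G85970), a glutathione transferase, had 727, 669.7 and 721 CPM in the 21w libraries, against 1151, 1721 and 1895 CPM in the 12w libraries. The change of *GSTF9* was -1.17 ± 0.32 SE on the log2 scale (edgeR, adjusted p 0.0291), and the call was lost when any library but 12w replicate 1 was left out (adjusted p of up to 0.115). *SOT16* was below 10 CPM in all 6 libraries, and its groups overlapped (adjusted p 0.0397, edgeR). The difference between the aliphatic and the indolic list was not tested.

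Hormone genes gave scattered calls. In the abscisic acid list 1 of 22 tested genes rose and 1 fell, where 1.55% of all genes were called higher and 1.36% lower. *ABF1* (Aa_G599980), a bZIP factor of the abscisic acid and cold response, had 24.5, 31.4 and 52.9 CPM in the 21w libraries, against 169.7, 188 and 190.2 CPM in the 12w libraries. Even the highest 21w library was far below the lowest 12w library. *ABF1* had an adjusted p of 4.33e-05 in edgeR and a log2 fold change of -2.33 ± 0.27 SE, and the call held under every left-out library. *RAB18* (Aa_G43900), a dehydrin induced by abscisic acid, had 309.7, 264 and 232 CPM in the 21w libraries, against 79.5, 59.8 and 76.7 CPM in the 12w libraries, the opposite direction and again without overlap. For *RAB18* edgeR put the log2 fold change at 1.90 ± 0.50 SE and the adjusted p at 0.0240, and the call ended without replicate 1 of 21w or replicate 1, 2 or 3 of 12w (adjusted p of up to 0.0792).

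In the auxin response list, *IAA19* and *IAA28* moved apart, 1 call in each direction among 39 tested genes. Of all genes 1.55% were called higher and 1.36% lower, so these counts are near the background. *IAA19* (Aa_G424060), an Aux/IAA repressor induced by auxin, had 16.5, 16.5 and 28.9 CPM in the 21w libraries, against 7.50, 7.95 and 5.83 CPM in the 12w libraries. The change of *IAA19* was 1.54 ± 0.21 SE on the log2 scale (edgeR, adjusted p 0.000296). *IAA28* (Aa_G574370), a repressor of lateral root initiation, had 4.19, 0.787 and 3.61 CPM in the 21w libraries, against 24.4, 7.84 and 14.7 CPM in the 12w libraries, with all 21w libraries lower. *IAA28* had an adjusted p of 0.00569 in edgeR and a log2 fold change of -2.45 ± 0.51 SE. Both calls held under every left-out library. Auxin transport and metabolism gave no call with edgeR among 18 tested genes (at an unadjusted p under 0.05, 4 higher and 0 lower, and 0 higher and 0 lower by DESeq2). *PIN3* (Aa_G665770), an auxin efflux carrier, came close, averaging 230.2 ± 26.5 CPM at 21w and 122 ± 7.70 CPM at 12w (SD, n = 3 each). Its log2 fold change of 0.92 ± 0.11 SE and an adjusted p of 8.26e-05 with edgeR was short of 2-fold.

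Among gibberellin genes 2 of 25 tested fell, where 1.36% of all genes were called lower and 1.55% higher. *RGL3* (Aa_G192670), a DELLA repressor linked to jasmonate responses, had 7.34, 12.9 and 15.4 CPM in the 21w libraries, against 29.5, 27.8 and 31.9 CPM in the 12w libraries. For *RGL3* edgeR put the log2 fold change at -1.32 ± 0.21 SE and the adjusted p at 0.000784. *GAI* (Aa_G368720), another DELLA gene, ran the other way at 0.83 ± 0.12 SE and an adjusted p of 0.000537 on the log2 scale with edgeR, short of 2-fold. *GASA1* (Aa_G618430), a gene induced by gibberellin, had 5.27, 8.94 and 2.00 CPM in the 21w libraries, against 390.0, 38.1 and 67.2 CPM in the 12w libraries. 12w replicate 1 stood far above the other libraries, and in 1 of the 6 libraries its count equalled that of a neighbouring gene. The change of *GASA1* was -4.93 ± 1.18 SE on the log2 scale (edgeR, adjusted p 0.0144), and the call ended without replicate 1 or 3 of 21w or replicate 1 of 12w (adjusted p of up to 0.109), with a log2 fold change of -3.28 without 12w replicate 1. In the cytokinin list *LOG8* (Aa_G215840), an enzyme that releases active cytokinin, was the only call of 23, at 1.03 ± 0.19 SE and an adjusted p of 0.00300 on the log2 scale with edgeR. For this gene the call ended without replicate 2 of 21w (log2 fold change of 0.99).

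Single factors of other responses were called as well. There was 1 call each in the lists of light signalling (15 tested), low oxygen (15 tested) and heat shock (14 tested). Of all genes 1.55% were called higher and 1.36% lower. *ATHB2* (Aa_G296040), an HD-ZIP factor induced by shade, had 30.5, 24.0 and 32.7 CPM in the 21w libraries, against 12.2, 10.7 and 12.3 CPM in the 12w libraries. *ATHB2* had an adjusted p of 0.00428 in edgeR and a log2 fold change of 1.31 ± 0.26 SE, and it was the only call among 15 light signalling genes. *HRE1* (Aa_G199210), an ethylene response factor of low oxygen, had 57.3, 91.3 and 112 CPM in the 21w libraries, against 295, 251 and 278 CPM in the 12w libraries, with the 21w libraries lower throughout. For *HRE1* edgeR put the log2 fold change at -1.66 ± 0.29 SE and the adjusted p at 0.00195, while the low-oxygen enzyme genes *ADH1* and *PDC2* did not pass, at -0.38 and -0.47. *HSFB1* (Aa_G139460), a heat shock factor, had 26.1, 30.1 and 26.9 CPM in the 21w libraries, against 10.4, 15.6 and 9.09 CPM in the 12w libraries. The change of *HSFB1* was 1.24 ± 0.22 SE on the log2 scale (edgeR, adjusted p 0.00189). The calls on these 3 genes held under every left-out library.

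Water channels and cell wall loosening genes showed few calls. The tonoplast aquaporin *TIP1;1* (Aa_G25330) had 266, 213 and 222 CPM in the 21w libraries, against 419.6, 580.1 and 459 CPM in the 12w libraries, all lower at 21w. *TIP1;1* had an adjusted p of 0.0276 in edgeR and a log2 fold change of -1.06 ± 0.28 SE, and the call was lost whichever of the 6 libraries was left out (adjusted p of up to 0.0905). The plasma membrane aquaporin *PIP1;5* (Aa_G439790) averaged 55.1 ± 9.52 CPM at 21w and 26.3 ± 5.78 CPM at 12w (SD, n = 3 each), with a log2 fold change of 1.07, and the call ended without replicate 2 of 21w or replicate 1 of 12w (log2 fold change as small as 0.94). These were the only calls of 12 tested aquaporins, where 1.55% of all genes were called higher and 1.36% lower. Of 17 xyloglucan endotransglucosylases, which cut and rejoin wall xyloglucan, none rose and 2 fell. *XTH24* (Aa_G156070) had 44.6, 92.3 and 76.3 CPM in the 21w libraries, against 293, 205 and 251 CPM in the 12w libraries. No 21w library came near the 12w libraries, and the log2 fold change was -1.81 ± 0.33 SE and an adjusted p of 0.00221 with edgeR. *XTH15* (Aa_G191150) was at 0 in all 21w libraries and in 12w replicate 3, and the call ended without replicate 1, 2 or 3 of 21w or replicate 1 of 12w (adjusted p of up to 0.0782). Expansins gave no call among 16 tested with edgeR (at an unadjusted p under 0.05, 3 higher and 1 lower, and 2 higher and 0 lower by DESeq2).

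For the cuticle, the waxy outer layer of the shoot, 2 of 11 tested genes fell, against 1.36% of all genes, and none rose. *ABCG11* (Aa_G535620), a transporter that exports cuticular lipids, had 0, 0 and 0.634 CPM in the 21w libraries, against 8.43, 10.8 and 10.7 CPM in the 12w libraries. It was at 0 in 2 of the 21w libraries. With edgeR its adjusted p was 0.0457, and the call was lost when any library but 21w replicate 3 was left out (adjusted p of up to 0.150). *MYB96* (Aa_G13550), an activator of wax synthesis, was at 0 in all 21w libraries and had 3.34, 2.60 and 4.01 CPM at 12w, at least 21.8-fold lower when 3 counts per 21w library are taken as the floor. With edgeR its adjusted p was 0.0185, and the call ended without replicate 1, 2 or 3 of 21w (adjusted p of up to 0.0691). Suberin genes, for the corky barrier of bark and roots, gave no call of 11 tested with edgeR (at an unadjusted p under 0.05, 0 higher and 2 lower, and 0 higher and 0 lower by DESeq2). *P5CS2* (Aa_G213640), which makes proline, was the only call of 22 amino acid genes. It had 152, 186 and 178 CPM in the 21w libraries, against 430.4, 407 and 442 CPM in the 12w libraries. The 21w libraries were all more than 2-fold below every 12w library. For *P5CS2* edgeR put the log2 fold change at -1.31 ± 0.16 SE and the adjusted p at 8.72e-05, while its relative *P5CS1* averaged 480.0 CPM at 21w and 513 CPM at 12w, with overlapping libraries.

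The study picked 13 root-associated genes on libraries of this series, so their direction here is no independent evidence. Of these, 12 were matched by locus and tested, and *WRKY75* was not analysed here. None rose and 2 fell, where 1.55% of all genes were called higher and 1.36% lower. The median log2 fold change was -0.28 (-0.47 with genes at 0 in a group set to the fold that 3 counts allow). *RAV1* (Aa_G164300), an AP2/B3 factor that restrains growth, had 43.6, 70.8 and 55.4 CPM in the 21w libraries, against 152, 126 and 169 CPM in the 12w libraries. The change of *RAV1* was -1.40 ± 0.21 SE on the log2 scale (edgeR, adjusted p 0.000552), and the call held under every left-out library. *PMT5* (Aa_G429460), a polyol transporter, had 41.0, 81.6 and 46.0 CPM in the 21w libraries, against 89.9, 137 and 134 CPM in the 12w libraries. *PMT5* had an adjusted p of 0.0179 in edgeR and a log2 fold change of -1.10 ± 0.27 SE, and the call ended without replicate 1 or 3 of 21w or replicate 2 or 3 of 12w (adjusted p of up to 0.104). *PUB9* (Aa_G174650), a ubiquitin ligase, passed the adjusted p at -0.44 ± 0.10 SE and an adjusted p of 0.00862 on the log2 scale in edgeR. *NRT2.1* (Aa_G286010), a nitrate transporter, had 29.6, 21.7 and 14.5 CPM in the 21w libraries, against 0.548, 3.87 and 0 CPM in the 12w libraries. The 21w libraries were all higher, but the adjusted p was 0.473 in edgeR, and the gene passed under none of the alternatives. *EXPA17* (Aa_G46840), an expansin of lateral roots, had 6.30, 3.88 and 3.56 CPM in the 21w libraries, against 0.110, 2.90 and 0 CPM in the 12w libraries and an adjusted p of 0.483 in edgeR. *PUCHI*, *AGL44* and *PILS5* were below 3 CPM in all 6 libraries, and *HAE*, *CUC1*, *TCTP1* and *NRP2* had log2 fold changes of 0.31, -0.13, -0.49 and 0.03 with overlapping libraries.

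In the lateral and adventitious root formation list 1 of 19 tested genes rose and 1 fell, where 1.55% of all genes were called higher and 1.36% lower. The study named the gene that rose, *ARGOS-LIKE*, among genes of dividing meristems. *ARGOS-LIKE* (Aa_G100480), a promoter of organ growth, had 4.42, 4.27 and 1.02 CPM in the 21w libraries, against 0.219, 0.408 and 0.125 CPM in the 12w libraries. For *ARGOS-LIKE* edgeR put the log2 fold change at 3.65 ± 0.78 SE and the adjusted p at 0.00704, at a level near the low end of the table. *IAA14* (Aa_G658530), a repressor of lateral root formation, had 0.235, 0 and 0 CPM in the 21w libraries, against 4.11, 3.26 and 3.38 CPM in the 12w libraries, with an adjusted p of 0.0476 in edgeR, and the call was lost when any library but 21w replicate 1 was left out (adjusted p of up to 0.137). *LAX3* (Aa_G121500), an auxin influx carrier around emerging lateral roots, passed the adjusted p at 0.73 ± 0.17 SE and an adjusted p of 0.0138 on the log2 scale in edgeR without reaching 2-fold. The auxin response factors *ARF7* and *ARF19*, which start lateral roots, averaged 121 and 48.9 CPM at 21w, against 128 and 35.4 CPM at 12w, and neither passed.

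Several larger programmes gave no call with edgeR. Of 41 tested genes of DNA replication and cell division the median log2 fold change was 0.56 (0.35 with genes at 0 in a group set to the fold that 3 counts allow), with 6 higher and 4 lower at an unadjusted p under 0.05 and 2 higher and 1 lower by DESeq2. Of 37 photosynthesis genes the median was -0.18, with 0 higher and 9 lower at an unadjusted p under 0.05 and 0 higher and 0 lower by DESeq2. Their summed CPM was 10870.0 to 19412 at 21w and 20251 to 26419 at 12w, without overlap. Of 19 flowering and vernalization genes the median was -0.33, with 0 higher and 5 lower at an unadjusted p under 0.05 and 0 higher and 1 lower by DESeq2. In that list 3 repressors of flowering passed the adjusted p without reaching 2-fold. *SVP* (Aa_G311490), a MADS-box repressor, averaged 155 ± 37.9 CPM at 21w and 308 ± 52.5 CPM at 12w (SD, n = 3 each). The change of *SVP* was -0.99 ± 0.16 SE on the log2 scale (edgeR, adjusted p 0.000941). *AP2* (Aa_G575880), which also shapes flowers, had a log2 fold change of -0.80 ± 0.09 SE and an adjusted p of 3.07e-05 with edgeR, and *TOE1*, its relative, -0.48. *SOC1* (Aa_G15970), an activator of flowering, averaged 113 CPM at 21w and 104 CPM at 12w.

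The largest changes over all genes included genes at 0 in every 12w library. Of the called genes with an *A. thaliana* homolog, at least 10 CPM in the higher group, no overlap and no count of 100 or more shared with a neighbouring gene, 4 were at 0 in all 12w libraries. *TPPG* (Aa_G42780), a trehalose-6-phosphate phosphatase, had 11.3, 13.2 and 12.7 CPM at 21w and was at least 73.6-fold higher than the 12w floor of 3 counts per library. *ALA6* (Aa_G184630), a lipid flippase, had 13.2, 14.4 and 13.6 CPM at 21w, at least 81.5-fold higher. For these 2 and for the other 2, Aa_G76440 and Aa_G146020, the call held under every left-out library. A count of 0 from a transcript assembly can also be a failed estimate, and 1069 tested genes above 5 CPM on average were at 0 in at least 1 of the 6 libraries. Other genes rose strongly without being at 0. *DOGT1* (Aa_G25290), a glucosyltransferase that inactivates brassinosteroids, had 31.5, 15.3 and 23.4 CPM in the 21w libraries, against 0.876, 1.43 and 1.00 CPM in the 12w libraries. *DOGT1* had an adjusted p of 0.00209 in edgeR and a log2 fold change of 4.40 ± 0.79 SE. *BCB* (Aa_G68110), a blue copper-binding protein, had 211, 129 and 169.8 CPM in the 21w libraries, against 10.1, 26.4 and 4.89 CPM in the 12w libraries. No 12w library came near the 21w libraries, and the log2 fold change was 3.62 ± 0.63 SE and an adjusted p of 0.00177 with edgeR (4.51 without 12w replicate 2). *NDPK2* (Aa_G75350), a nucleoside diphosphate kinase, had 163, 161 and 154 CPM in the 21w libraries, against 24.1, 17.8 and 22.4 CPM in the 12w libraries. Despite the narrow groups its adjusted p was 0.0314 in edgeR, and the call was lost whichever of the 6 libraries was left out (adjusted p of up to 0.107). Aa_G72510 had 17.9, 17.1 and 10.7 CPM in the 21w libraries, against 1.48, 2.85 and 1.75 CPM in the 12w libraries, and the call ended without replicate 1 or 3 of 12w (adjusted p of up to 0.0857). *MGL* (Aa_G277490), methionine gamma-lyase, had 14.7, 30.1 and 22.5 CPM in the 21w libraries, against 0, 0 and 3.07 CPM in the 12w libraries, and the call ended without replicate 1 of 12w (adjusted p 0.0550).

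Among the largest falls, *RD22* (Aa_G539240), a dehydration-responsive gene, was at 0 in all 21w libraries and had 33.0, 22.1 and 30.8 CPM at 12w, at least 188-fold lower. Its adjusted p was 0.0277 with edgeR, and the call was lost when any library but 12w replicate 2 was left out (adjusted p of up to 0.0945). *GRP3* (Aa_G152480), a glycine-rich protein of the cell wall, had 0.470, 0.169 and 2.10 CPM in the 21w libraries, against 21.9, 96.8 and 40.2 CPM in the 12w libraries. The 12w libraries varied widely among themselves but stayed far above 21w. For *GRP3* edgeR put the log2 fold change at -5.84 ± 1.19 SE and the adjusted p at 0.00521. *HMT3* (Aa_G516000), a homocysteine methyltransferase, had 6.49, 19.6 and 13.3 CPM in the 21w libraries, against 74.5, 103 and 113 CPM in the 12w libraries. The change of *HMT3* was -2.89 ± 0.54 SE on the log2 scale (edgeR, adjusted p 0.00264). *DI21* (Aa_G327170), a drought-induced gene, had 25.9, 27.0 and 53.0 CPM in the 21w libraries, against 321, 155 and 234 CPM in the 12w libraries, with a log2 fold change of -2.74 ± 0.59 SE and an adjusted p of 0.00724 with edgeR. The calls on *GRP3*, *HMT3* and *DI21* held under every left-out library, with a log2 fold change of *GRP3* of -7.32 without 21w replicate 3 and -5.07 without 12w replicate 2. The remaining large falls were in genes described by their identifier alone. Aa_G459190 was at 0 in all 21w libraries and had 15.4, 12.9 and 15.2 CPM at 12w, at least 95.5-fold lower, and the call ended without replicate 1 of 21w (adjusted p 0.0625). Aa_G871200 had 12.4, 14.6 and 13.2 CPM in the 21w libraries, against 177, 166 and 89.8 CPM in the 12w libraries, with a log2 fold change of -3.43 ± 0.64 SE and an adjusted p of 0.00289 with edgeR. Aa_G49290 had 3.29, 5.06 and 4.58 CPM in the 21w libraries, against 33.3, 19.7 and 30.2 CPM in the 12w libraries, with a log2 fold change of -2.68 ± 0.49 SE and an adjusted p of 0.00226 with edgeR. Both calls held under every left-out library. In Aa_G68230 a single 12w library stood far above the rest, with 3.29, 2.42 and 1.61 CPM in the 21w libraries, against 8.87, 7.39 and 54.8 CPM in the 12w libraries, and the call ended without replicate 1, 2 or 3 of 21w or replicate 3 of 12w (adjusted p of up to 0.257), with a log2 fold change of -1.73 without 12w replicate 3. Aa_G914500 had 0.706, 1.69 and 1.56 CPM in the 21w libraries, against 10.95, 8.86 and 18.3 CPM in the 12w libraries, and the call was lost when any library but 12w replicate 2 was left out (adjusted p of up to 0.111).

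Among genes with high levels, *SUS1* and *C4H*, described above, and *SHM4* were in the top of the higher calls. *SHM4* (Aa_G206680), a serine hydroxymethyltransferase of one-carbon metabolism, had 749, 516 and 414 CPM in the 21w libraries, against 209, 261 and 204 CPM in the 12w libraries. *SHM4* had an adjusted p of 0.00189 in edgeR and a log2 fold change of 1.32 ± 0.23 SE. *PMEPCRA* (Aa_G715630), a pectin methylesterase, had 1159, 1563 and 1691 CPM in the 21w libraries, against 289, 554 and 184 CPM in the 12w libraries. The 12w libraries differed widely among themselves. For *PMEPCRA* edgeR put the log2 fold change at 2.10 ± 0.48 SE and the adjusted p at 0.0107, and the call ended without replicate 1 or 3 of 12w (adjusted p of up to 0.0611). Aa_G296480, which has no *A. thaliana* locus in the table, averaged 1719 CPM at 21w and 21.1 CPM at 12w, but in 3 of the 6 libraries its count equalled that of a neighbouring gene, and the call ended without replicate 1, 2 or 3 of 12w (adjusted p of up to 0.0995). On the lower side *PRXR1* (Aa_G117410), a peroxidase, had the highest level, with 5027, 5563 and 5268 CPM in the 21w libraries, against 9773, 11018 and 11842 CPM in the 12w libraries. The change of *PRXR1* was -1.04 ± 0.15 SE on the log2 scale (edgeR, adjusted p 0.000484), and the call ended without replicate 1 of 21w or replicate 3 of 12w (log2 fold change as small as -0.97). *FAD2* (Aa_G5280), the desaturase that makes linoleic acid, had 676, 857 and 259.7 CPM in the 21w libraries, against 1719.7, 1309 and 1587 CPM in the 12w libraries. Among the 21w libraries replicate 3 was lowest by far. *FAD2* had an adjusted p of 0.0165 in edgeR and a log2 fold change of -1.36 ± 0.33 SE, and the call ended without replicate 3 of 21w or replicate 1 or 3 of 12w (adjusted p of up to 0.0675). Aa_G204360 had 231, 344 and 346 CPM in the 21w libraries, against 853, 803 and 725 CPM in the 12w libraries, with a log2 fold change of -1.37 ± 0.25 SE and an adjusted p of 0.00249 with edgeR, and it was called under every left-out library.

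The libraries of the other cold durations place these differences in time, as a description with no test, since these genes were chosen on 21w and 12w. Of the 299 higher genes 259 had a 16w mean between those of 12w and 21w, 34 had it below both and 6 above both. Of the 263 lower genes 220 had it between, 35 above both and 8 below both. Before cold, at 0w, 244 of the higher and 193 of the lower genes had a mean on the side of 21w, taken from 12w. Genes chosen for their 12w and 21w values tend to have other groups on that side or between. The share over all tested genes was not computed, so these counts are no sign of a return. The secondary wall polysaccharide list had a mean summed CPM of 5849.9 ± 906 at 0w, 1098 ± 154 after 4 weeks, 538 ± 166 after 8 weeks, 337 ± 119 after 12 weeks, 714 ± 16.6 after 16 weeks and 1149 ± 404 at 21w (SD, n = 3 each). Its mean was lowest at 12w, and the 21w mean lay near that after 4 weeks and far below that at 0w. Lignin genes had a mean summed CPM of 7712 ± 896 at 0w, 3399 ± 168 after 4 weeks, 2478 ± 368 after 8 weeks, 2066 ± 399.7 after 12 weeks, 2269.8 ± 174 after 16 weeks and 3638 ± 536 at 21w (SD, n = 3 each). Jasmonate signalling genes differed from these, with 722 ± 60.9 at 0w, 778 ± 4.70 after 4 weeks, 848 ± 51.0 after 8 weeks, 840.4 ± 50.6 after 12 weeks, 999 ± 108 after 16 weeks and 1151 ± 134 at 21w (SD, n = 3 each), and were highest at 21w. Cold-regulated genes had 4929 ± 733 at 0w, 12516 ± 54.2 after 4 weeks, 14513 ± 1836 after 8 weeks, 10402 ± 1219.7 after 12 weeks, 7361 ± 847 after 16 weeks and 5197 ± 730.3 at 21w (SD, n = 3 each), with the peak at 8w. Aliphatic glucosinolate genes had 9729 ± 1686 at 0w, 1725 ± 539 after 4 weeks, 2646 ± 823 after 8 weeks, 3013 ± 879 after 12 weeks, 2941 ± 934 after 16 weeks and 1503 ± 152 at 21w (SD, n = 3 each), with the lowest mean at 21w, within the spread of the 4w libraries.

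**Figure D5:**
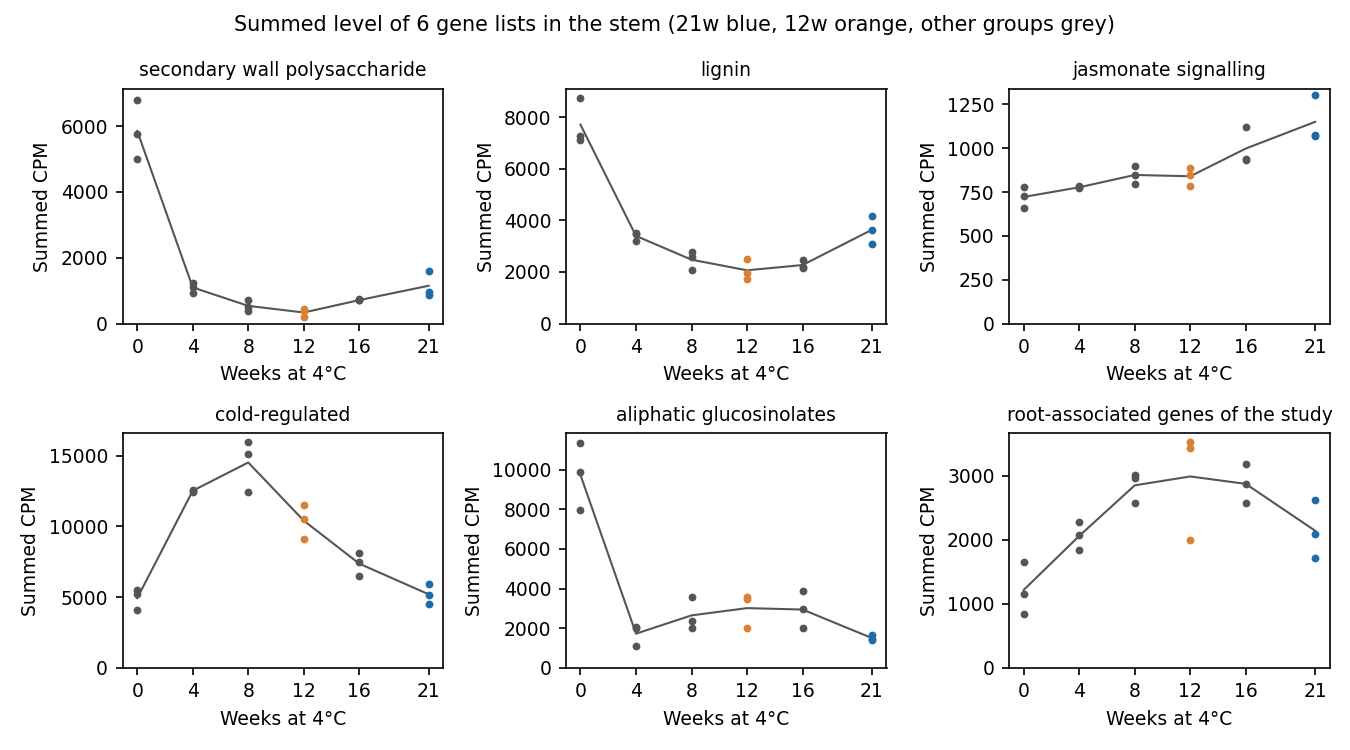
Summed CPM of 6 gene lists by weeks at 4°C, from 0 (before cold) to 21 weeks, with 1 dot per library and a line through the group means. Secondary wall polysaccharide genes fall to a low at 12 weeks and are higher at 21 weeks, while cold-regulated genes peak at 8 weeks.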

How the data were processed

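Poly-A RNA of 27 stem libraries was sequenced by the study as 150-bp single-end reads from a strand-specific kit. Alignment by the authors used HISAT2, transcripts were assembled with StringTie, and its conversion script turned coverage into a count per gene, so that the deposited counts are rounded whole numbers and not tallies of single reads. Tool versions, the genome build and any use of strand in counting were not given in the sources used here. A total of 18 deposited comparison tables, which hold the authors' DESeq2 log2 fold changes and adjusted p-values, were not used. A gene the authors' counting could not tell from a neighbour can carry the same count: 1570 tested genes had a count of 100 or more equal to that of the next gene by locus code in at least 1 of the 6 libraries, and 54 of the called genes were among them.

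The table held 21641 genes, 15954 with an *A. thaliana* locus. In R 4.3.3 with edgeR 4.0.16 (limma 3.58.1), counts of all 27 libraries were scaled by TMM, filtered with filterByExpr by group, and fitted with group means by the quasi-likelihood method with 18 residual degrees of freedom. The contrast was 21w minus 12w, with p-values adjusted by Benjamini-Hochberg over the 19337 tested genes, 14985 with a locus, and calls at an adjusted p under 0.05 and at least 2-fold. On simulated counts for 19128 genes of this comparison, 20 of 67 genes changed 2-fold, 53 of 67 changed 4-fold and 57 of 66 changed 8-fold were called the right way. Genes near 2-fold were thus often missed, in part because a call needs an estimate of at least 2-fold, whatever the spread. The changed genes all averaged above 5 CPM, and every group but 21w was given the same mean. The simulation therefore gives no rate for genes at lower levels. A fold against a group at 0 was computed against 3 counts per library.

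The 44 gene lists, and the members described, were chosen with earlier results of these data known. Named genes were, in each list and direction, up to 3 called members with the largest change, no overlap and at least 5 CPM in the higher group, the 10 largest changes over all genes in each direction with a homolog, at least 10 CPM and no shared count, the 5 highest-level called genes in each direction without overlap, and the root-associated genes of the study. Further members of a list are named where its call count or direction turns on them, chosen after their values were seen. *WRKY75* was not matched by locus. No genome or sequence was used. Each result, and each gene group of the closing section, was also computed with DESeq2 1.42.0, in edgeR with the DESeq2 size factors or with upper quartiles, with no filter or 50 counts in 3 libraries, a fit of the 6 libraries or of the 5 cold groups alone, the replicate number as a block, the adjusted p alone, glmTreat against 1.5-fold, each library left out in turn, and the genes at 0 or with shared counts left out.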

Additional observations from a re-analysis of the deposited data

How the results depend on the processing

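The settings of the scaling and the filter left the number of called genes near 299 higher and 263 lower, while several choices of the libraries and of the test did not. DESeq2 called 598 higher and 468 lower, the adjusted p alone 670 and 825, glmTreat against 1.5-fold 52 and 76, and a fit on the 6 libraries of 21w and 12w alone 133 and 115, of which 82 and 80 were among the calls above. Leaving out each library in turn gave 134 to 337 higher and 147 to 292 lower genes, always fewer than the full set except without 12w replicate 2. Fitting the 6 libraries alone leaves 4 residual degrees of freedom in place of 18. With the replicate number as a block, 270 genes were higher and 257 lower, sharing 263 and 241 with the fit without it. Deviations of same-numbered libraries correlated at 0.0052, -0.00057 and -0.011, and the labels give no shared origin, so the libraries share only a number. Of 103 called genes that the text names or the lists hold, those of the groups chosen after seeing the data included, 102 were also called by DESeq2 and 50 under every left-out library. The call ended for 56 in the 6 libraries alone and for 66 with glmTreat. It ended for *ADS2* with DESeq2, the stricter filter and both other scalings, for *SOT17* with both other scalings, for *MYC2*, *ABCG11*, *SOT17* and *IAA14* with no filter, for 8 in the 5 cold groups and for 5 with the block. Of the uncalled genes, *CUC1* ranged from -0.22 to 0.034 on the log2 scale over the left-out libraries, above 0 without 21w replicate 3, and *NRP2* from -0.26 to 0.23, at -0.05 without 21w replicate 1 and -0.26 without 12w replicate 1, against -0.13 and 0.03 with all libraries. The cause of these differences was not tested. Depth limits genes below about 1 CPM, where a count of 0 at 21w allows up to 0.152 CPM and at 12w up to 0.168 CPM, counting error only.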

Other observations

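Some called genes belong to gene groups that are in none of the lists above. These groups were picked after their values had been seen, so their counts describe these libraries and test nothing. Among all tested genes 1.55% were called higher and 1.36% lower. The methyl cycle, which supplies the methyl groups for lignin monomers and other products, had 4 of 11 tested genes called higher at 21w and a positive log2 fold change in all 11, with a median of 0.64, and 4 were called under each left-out library. *SAHH2* (Aa_G179020), an adenosylhomocysteine hydrolase, had 409.6, 260.3 and 194 CPM in the 21w libraries, against 62.8, 103 and 65.9 CPM in the 12w libraries, with no overlap. For *SAHH2* edgeR put the log2 fold change at 1.90 ± 0.32 SE and the adjusted p at 0.00154. *MTHFR2* (Aa_G100560), a methylenetetrahydrofolate reductase, had 157, 142 and 132 CPM in the 21w libraries, against 61.5, 75.4 and 60.5 CPM in the 12w libraries and a log2 fold change of 1.13. *ADK2* (Aa_G259880), an adenosine kinase, had a log2 fold change of 1.52, and in 1 of the 6 libraries its count equalled that of a neighbouring gene. The other call was *SHM4*. *HMT3*, the homocysteine methyltransferase described above, was left out of this group and ran the other way, called lower at a log2 fold change of -2.89. Nucleotide sugar genes that feed xylan synthesis had 4 of 8 called higher and 7 with a positive log2 fold change, with a median of 0.75, but only 2 called without 21w replicate 1 or 2 or 12w replicate 1 or 3. *UXT1* (Aa_G18010), a UDP-xylose transporter, had 14.8, 35.8 and 19.7 CPM in the 21w libraries, against 1.86, 5.35 and 7.08 CPM in the 12w libraries, and *UGD3* (Aa_G236890), a UDP-glucose dehydrogenase, averaged 171 ± 27.5 CPM at 21w and 56.2 ± 20.5 CPM at 12w (SD, n = 3 each). *UGD4* and *UXS3* changed by less, at log2 fold changes of 1.00 and 1.01. For *UGD4* the call ended without replicate 1 or 2 of 21w or replicate 1 or 3 of 12w (adjusted p of up to 0.133), and for *UXS3* the call was lost whichever of the 6 libraries was left out (adjusted p of up to 0.186). Of 5 subunit genes of ATP-citrate lyase, which makes cytosolic acetyl-CoA, 2 were called higher. *ACLB-2* (Aa_G128250) had 47.0, 81.9 and 42.9 CPM in the 21w libraries, against 4.27, 19.5 and 5.64 CPM in the 12w libraries, and its log2 fold change was 2.55, or 3.54 without 12w replicate 2. *ACLA-1* (Aa_G545760) averaged 55.6 ± 13.8 CPM at 21w and 17.9 ± 2.20 CPM at 12w (SD, n = 3 each), while *ACLA-3* averaged 84.6 CPM at 21w and 81.3 CPM at 12w.

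The CIPK kinases, which act with calcium sensors in ion and stress signalling, did not move one way. Of 18 tested genes 5 were called lower and none higher, 13 had a negative log2 fold change, and the median was -0.27. *CIPK25* (Aa_G398090) had 36.7, 57.6 and 52.3 CPM in the 21w libraries, against 166, 188 and 159 CPM in the 12w libraries, with no overlap. The change of *CIPK25* was -1.81 ± 0.17 SE on the log2 scale (edgeR, adjusted p 7.14e-06). *CIPK7* (Aa_G277270) had 224, 264 and 323 CPM in the 21w libraries, against 630.3, 629 and 652 CPM in the 12w libraries and a log2 fold change of -1.24. *CIPK12* and *CIPK21* had log2 fold changes of -1.08 and -1.52, and *CIPK20* was below 2 CPM in all 6 libraries, and the call was lost when any library but 12w replicate 2 was left out (adjusted p of up to 0.217), with a log2 fold change of -4.67 without 21w replicate 2 and -2.46 without 12w replicate 3. *CIPK14*, *CIPK11* and *CIPK1* ran the other way without being called, at log2 fold changes of 0.72, 0.70 and 0.62. The neighbouring genes *HMGB2* (Aa_G119620) and *HMGB3* (Aa_G119630), for small chromatin proteins, were both called lower, with 124, 141 and 159 CPM in the 21w libraries, against 259, 660.0 and 619 CPM in the 12w libraries for *HMGB2* and 197, 173 and 213 CPM in the 21w libraries, against 299.8, 660.0 and 619 CPM in the 12w libraries for *HMGB3*. They carried the same count in 12w replicates 2 and 3, so their separate changes are uncertain. For *HMGB2* the call ended without replicate 1 of 21w (adjusted p 0.0574), and for *HMGB3* the call ended without replicate 1 or 2 of 21w or replicate 2 or 3 of 12w (adjusted p of up to 0.0802). The other members tested, *HMGB1* and *HMGB4*, were not called, at log2 fold changes of -0.74 and 0.16.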
